A study of Mus musculus with 42 samples.

Results

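Tropomyosins and contractile genes were followed in mouse liver through 8 genes of the 19758 listed over 6 deposited tables of normalized counts. They were the 4 tropomyosin genes Tpm1, Tpm2, Tpm3 and Tpm4, the smooth muscle genes Acta2, Tagln and Myl9, and Neb. The rows were taken by gene symbol, and all 8 genes were listed and passed the filter on low values in all 6 tables. Tpm2 was chosen by its normalized counts and fold change in WT obese against WT lean liver, where it was higher, and the others were chosen as relatives with those results known, so values from that comparison are given as a description with no test.

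Livers of 42 male C57BL/6J mice were sequenced as stranded total RNA, with 7 mice in each of 6 groups and 1 library per mouse. ChemR23, encoded by Cmklr1, is a receptor for the lipid mediator resolvin E1 (RvE1), and the KO mice carried a CRISPR/Cas9-edited Cmklr1 throughout the body, with WT littermates as controls. WT lean and KO lean mice received a diet with 10% of its energy from fat, and WT obese and KO obese mice one with 60%, from 6 weeks of age for 15 weeks. WT obese+RvE1 and KO obese+RvE1 mice were obese mice of the same diet that were injected intraperitoneally with 300 ng of RvE1 on 4 consecutive days, and the other 4 groups received an ethanol and PBS vehicle instead. All livers were taken on day 5 after a fast. Each table compared a pair of groups and was normalized on its own, so levels were compared between groups within a table only. Each mouse's identifier opens with a number. Most numbers are shared by several mice of 1 group, 19 and 22 belong to 1 mouse each, and 23 to mice of KO obese and KO obese+RvE1. The labels do not say what the number stands for.

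Tropomyosins are coiled-coil proteins that lie along the groove of actin filaments and set which myosins and actin-binding proteins gain access to them. In muscle they work with troponin to gate contraction, and in other cells different tropomyosins mark stress fibres, cortical actin and the actin around organelles. In liver, smooth muscle actin and its partners are known from vessel walls and from activated hepatic stellate cells, while hepatocytes use nonmuscle myosin to drive the cortex around bile canaliculi. Nebulin, encoded by Neb, is the giant protein that spans the thin filament of skeletal muscle.

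RefSeq promoter windows, from 250 bases before to 50 bases after the start of transcription (GRCm38.p6, the assembly that mm10 names), were found for 6 of the 8 genes. They were Acta2, Myl9, Tpm1, Tpm2, Tpm3, with 2 windows, and Tpm4. The CArG box, to which serum response factor binds, was searched on both strands as CC, 6 bases of A or T, then GG, with no mismatch allowed. It had a match in Myl9 alone, with its first base at -161 from the start site. Boxes that depart from this pattern or lie outside the windows were not searched for. That motif stood in 1.63% of the 32851 promoters in the table. The TATA box (TATAAA, 13.6% of promoters) had no match in these windows, nor had the DR1 repeat of nuclear receptors (AGGTCA repeated after 1 base, 0.0396% of promoters). The MCAT element (CATTCC, 14.7% of promoters), a site of TEAD factors, had a match in the windows of Acta2 and Tpm1. RefSeq and GENCODE M21 place some starts differently, and exons of GENCODE reach into several of the windows. So only the longest stretch before the RefSeq start that lies outside every GENCODE exon of the gene is shown, for Tpm2 because its level differed most between diets, and for Myl9 because it holds the CArG box, in capitals. The Tpm2 stretch still lies within the GENCODE gene, since 1 transcript starts further upstream.
Tpm2, chr4:43523596-43523700, minus strand: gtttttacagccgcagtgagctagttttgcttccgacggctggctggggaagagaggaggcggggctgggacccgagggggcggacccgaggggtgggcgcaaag
Myl9, chr2:156775214-156775419, plus strand: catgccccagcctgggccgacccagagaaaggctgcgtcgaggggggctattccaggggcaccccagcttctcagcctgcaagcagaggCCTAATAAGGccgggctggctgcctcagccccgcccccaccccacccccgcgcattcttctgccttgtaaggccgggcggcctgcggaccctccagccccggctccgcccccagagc

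The targeted gene followed the labels. Cmklr1 had normalized counts of 9.72, 10.7 and 22.6 (lowest, median and highest mouse) in KO lean against 40.8, 62.0 and 114 in WT lean liver. All 7 KO lean mice lay below all WT lean mice, as for 0.422% of all genes, and the log2 fold change was -2.23 (SE 0.24, limma with Benjamini-Hochberg adjustment over all genes, adjusted p = 0.000492). Among obese mice Cmklr1 was likewise lower in KO liver, with normalized counts of 5.08, 14.2 and 23.2 in KO obese against 33.3, 51.5 and 102 in WT obese mice. The log2 fold change was -2.04 (SE 0.31, limma adjusted p = 0.0339). That call was lost under a random block for the identifier number (-2.16, adjusted p = 0.153), with each library scaled to the same total (-2.08, adjusted p = 0.143) and without KO obese replicate 3 or 5 or WT obese replicate 1 or 5 (adjusted p from 0.106 to 0.132), and it was kept by edgeR (adjusted p = 0.0481) and DESeq2. The tissue label was checked with 10 hepatocyte markers. All of them were listed, and the most abundant, Alb, had group medians between 639068 and 704689 normalized counts in the diet comparisons.

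One library stood apart in muscle transcripts. KO lean replicate 7 held 236 normalized counts of Ttn, the giant sarcomeric titin, against at most 19.4 in the other KO lean mice. It also held 211 of Atp2a1, the calcium pump of fast muscle, against at most 12.3. Its sum over the 5 listed of 15 skeletal muscle markers was 501, while the KO lean median was 25.7 and KO obese mice lay between 31.2 and 38.2. The same mouse had the highest Tpm2 of the KO lean group. How far skeletal muscle RNA adds to its Tpm2 was not tested, and the differences of Tpm2 that include KO lean mice, its share and its correlations, the call of Neb and the counts of pathway genes are also given without it.

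Expressed per kilobase of exon, the 8 genes spanned a wide range of levels. In WT lean liver the medians were 314 normalized counts per kilobase for Tpm4, 175 for Tpm3, 81.9 for Tagln, 63.6 for Tpm1, 26.2 for Myl9, 14.9 for Neb, 6.40 for Tpm2 and 5.81 for Acta2. The ranges of Tpm4 and Tpm3 met, between 207 and 221 per kilobase. Tpm2, between 5.63 and 8.41, could not be separated from Acta2, between 1.13 and 13.9. Tpm3 and Tpm4 were thus the most abundant tropomyosins in this liver, and Tpm2 the least abundant. The lengths were those of all annotated exons joined, 6085 bases for Tpm3 and 2203 for Tpm4, which can exceed those of the transcripts present. Undivided, the WT lean median of Tpm3 (1066) was above that of Tpm4 (692), so their order depends on these lengths. In WT obese liver Tpm2 had a median of 33.8 per kilobase and stood above Myl9 (22.7), Neb (21.8) and Acta2 (6.09), with a range (10.3 to 46.4) that overlapped those of all 3. The order of the leading genes there was Tpm3 (186), Tpm4 (171), Tagln (80.5) and Tpm1 (59.8), and Tpm3 and Tpm4 overlapped.

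Tpm2, which encodes beta-tropomyosin, a muscle-enriched form, was higher in obese than in lean liver of both genotypes. The gene lies at chr4:43514711-43523765 on the minus strand (GRCm38, GENCODE M21). In WT lean liver the 7 mice had normalized counts of 16.4, 18.6 and 24.5 (lowest, median and highest), from 14 to 26 reads per library. In WT obese liver they had 30.0, 98.2 and 135, from 25 to 164 reads. Every WT obese mouse lay above every WT lean mouse, and the obese mice were far more widely spread than the lean ones. The log2 fold change was 2.01 (SE 0.27, 95% interval 1.44 to 2.57), a fold of 4.02. It placed Tpm2 at rank 25 of 14012 genes by log2 fold change in a comparison in which 3.8% of genes were called in either direction and 0.799% had all obese mice above all lean mice. A call required a fold change above 1.5 with an adjusted p under 0.1.

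In KO mice the same direction was found. KO lean liver had Tpm2 at 11.7, 23.5 and 85.2 normalized counts, and KO obese liver at 37.05, 121 and 166. The groups overlapped: KO lean replicate 7 lay above 3 KO obese mice, replicate 4 (42.3) lay above 1, and 4 of the 7 KO obese mice lay above every KO lean mouse. KO obese exceeded KO lean liver by 1.79 on the log2 scale (SE 0.42, 95% interval 0.90 to 2.68, a fold of 3.46, limma adjusted p = 0.0143), in a comparison in which 4.97% of genes were called higher. Without KO lean replicate 7 it was 2.07 with an adjusted p of 0.00876. The 3 KO obese mice whose identifiers open with 10 had 155, 156 and 166 normalized counts, the highest of the group. The mouse with number 23 had 37.05, and the 3 with number 31 had 72.5, 49.97 and 121. Without the mice of number 10 the log2 fold change was 1.23 and the call was lost (limma adjusted p = 0.116), and under a random block for the number it was 1.72 with an adjusted p of 0.0754. Taken as KO minus WT, the diet effects on Tpm2 differed by -0.21 (log2, SE 0.53), given as a description, and by 0.06 (SE 0.48) without KO lean replicate 7.

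**Figure D1:**
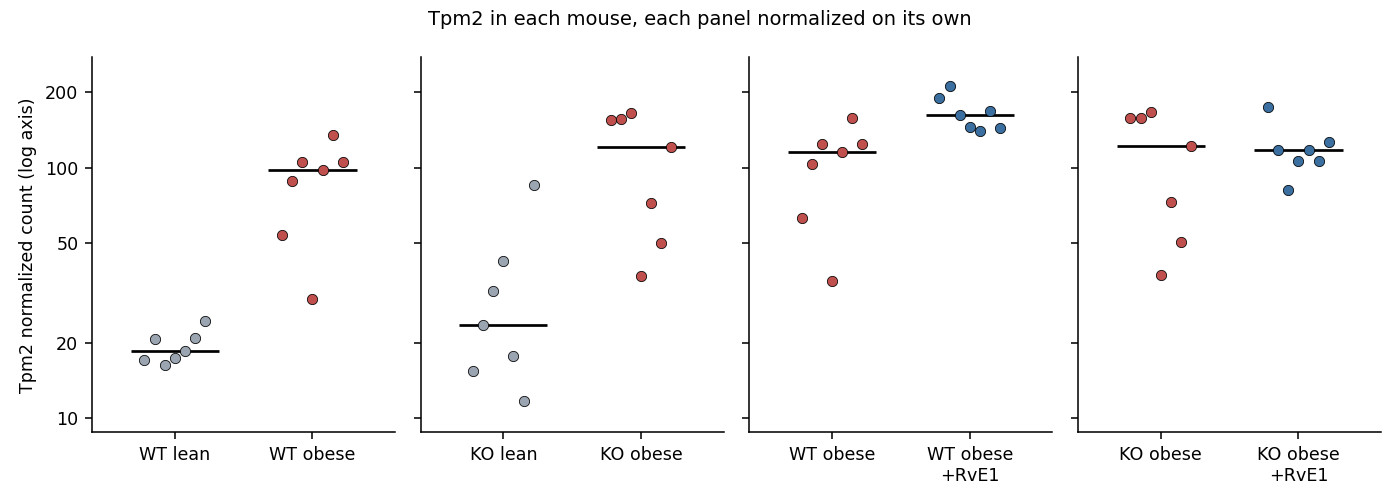
Normalized counts of Tpm2 in liver on a log axis, 1 point per mouse and 7 mice per group, with a bar at each group's median. The 4 panels (diet in WT, diet in KO, RvE1 in WT obese, RvE1 in KO obese) were each normalized on their own, and WT obese mice, from 30.0 to 135, all lie above WT lean mice, from 16.4 to 24.5.

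Tpm4 is a short tropomyosin of nonmuscle cells that is found on stress fibres. It had normalized counts of 456, 692 and 1341 in WT lean liver and 310.3, 377 and 717 in WT obese liver. The ranges overlapped, although 5 of 7 WT obese mice lay below every WT lean mouse, for a log2 fold change of -0.69 (SE 0.23). In KO mice Tpm4 had 572, 656 and 918 in lean and 396, 601 and 1279 in obese liver. There the groups overlapped widely and the test gave no call (log2 fold change -0.18, SE 0.21, limma adjusted p = 0.585). The KO obese mouse with the lowest Tpm2, replicate 4, had the highest Tpm4 of the group.

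Tpm1 encodes alpha-tropomyosin of striated and smooth muscle as well as nonmuscle forms, and had 332, 413 and 555 normalized counts in WT lean against 324, 388 and 598 in WT obese liver. Its groups overlapped fully in WT mice, with a log2 fold change of -0.03 (SE 0.15), and in KO mice the value was 0.10 (SE 0.17, limma adjusted p = 0.731). Tpm3, the gene of slow-muscle and many cytoplasmic tropomyosins, had 896, 1066 and 1348 in WT lean against 805, 1130.4 and 1293 in WT obese liver. Its log2 fold change was within 0.12 (1 SE) of 0 in WT mice and 0.21 in KO mice (SE 0.12, limma adjusted p = 0.24). Neither gene separated lean from obese liver in either genotype.

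The make-up of the tropomyosin transcripts differed accordingly. Of the summed level of the 4 genes per kilobase, Tpm2 made up a median of 1.22% in WT lean liver (range 0.703% to 1.51%) and 7.21% in WT obese liver (2.15% to 11.4%). In KO liver the medians were 1.39% lean (0.734% to 5.25%) and 7.44% obese (1.51% to 10.0%). Without KO lean replicate 7 the KO lean values were 1.19% (0.734% to 2.21%). Thus the WT ranges did not meet, while the KO ranges did, with or without that mouse. The share of Tpm4 had medians of 58.5% and 37.6% in WT lean and obese liver, and 53.3% and 41.7% in KO lean and obese liver. Its ranges overlapped in WT liver (43.4% to 73.1% lean, 30.9% to 59.8% obese). In KO liver the obese range (33.0% to 68.7%) held the whole lean range (46.6% to 63.9%). Tpm3 had medians of 30.9% and 41.0% in WT, and 32.8% and 37.4% in KO liver, with overlapping ranges in both genotypes. The summed level itself had medians of 563 and 472 normalized counts per kilobase in WT lean and obese liver, and 580.2 and 568 in KO lean and obese liver. These counts are per gene, and the shares do not tell which spliced form of each gene was present. The shares also rest on the joined length of all annotated exons of each gene.

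**Figure D2:**
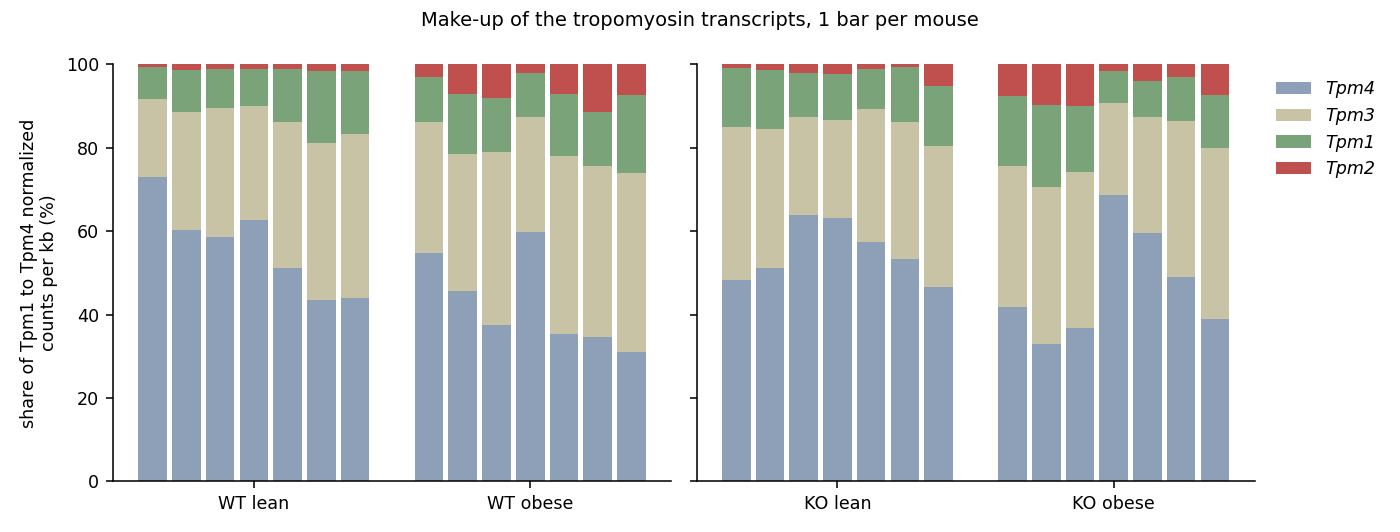
Share of each tropomyosin gene in the summed tropomyosin level per kilobase of exon (percent, vertical axis), 1 stacked bar per mouse, for the 4 vehicle groups of 7 mice. The Tpm2 share is between 0.703% and 1.51% in WT lean mice and between 2.15% and 11.4% in WT obese mice.

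Neb was the other gene of the set with a higher level in obese liver of both genotypes. It lies at chr2:52136647-52378474 on the minus strand and has the longest exon sequence of the 8 genes, with 26582 bases. In WT liver it had normalized counts of 231, 397 and 543 in lean and 432, 580.2 and 702 in obese mice. The groups overlapped, with 5 of 7 obese mice above every lean mouse. The log2 fold change in WT liver was 0.58 (SE 0.18, 95% interval 0.19 to 0.96). In KO liver Neb had 189.6, 334 and 419 in lean and 304, 532 and 812 in obese mice, again with 5 obese mice above every lean mouse. Its log2 fold change of 0.67 (SE 0.22, 95% interval 0.21 to 1.13) passed the test with a limma adjusted p of 0.0484. That call was lost under a random block for the identifier number (0.63, adjusted p = 0.173), without the mice of number 20 (0.57, adjusted p = 0.105) or 31 (0.41, adjusted p = 0.323), and without KO lean replicate 4 or KO obese replicate 6 or 7. KO lean replicate 7, with its muscle transcripts, had 418 and was not the highest for Neb, and the call held without it. The diet effects on Neb, KO minus WT, differed by 0.10 (SE 0.30), given as a description.

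**Figure D3:**
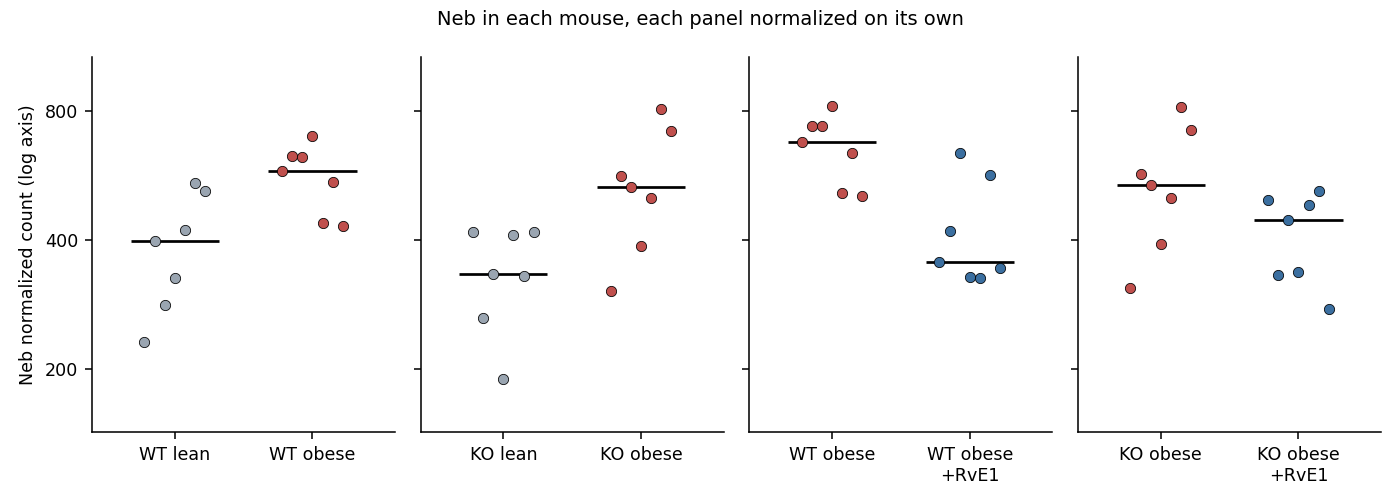
Normalized counts of Neb in liver on a log axis, 1 point per mouse and 7 mice per group, with a bar at each group's median, in 4 panels normalized on their own. Obese vehicle mice have higher medians than lean mice in both genotypes (580.2 against 397 in WT, 532 against 334 in KO), with overlapping groups.

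The 3 smooth muscle genes did not separate lean from obese liver. Acta2, the smooth muscle actin that marks vessel walls and activated stellate cells, was sparse and had normalized counts of 2.48, 12.8 and 30.4 in WT lean and 3.75, 13.4 and 85.8 in WT obese liver. WT obese replicate 5 alone lay above the lean mice, and the log2 fold change was 0.45 (SE 0.54), from 0.062 to 0.76 with each mouse left out in turn, 0.27 under a random block for the identifier number and 0.83 in edgeR. In KO mice Acta2 gave -0.03 (SE 0.42, limma adjusted p = 0.974), and the sign of that value turned in edgeR and DESeq2. Tagln, which encodes the actin-bundling protein SM22, had 147, 163 and 196 in WT lean and 129, 160.1 and 234 in WT obese liver. Its log2 fold changes were -0.03 (SE 0.13) in WT and -0.11 (SE 0.19, limma adjusted p = 0.729) in KO mice. Exons of Tagln share 1241 bases with the antisense gene Gm48529, and whether reads were counted by strand is not given, so reads from the pair cannot be told apart. Myl9, a regulatory light chain of smooth muscle and nonmuscle myosin, had 27.0, 30.4 and 40.2 in WT lean and 19.1, 26.4 and 46.9 in WT obese liver. Its log2 fold changes were -0.13 (SE 0.19) in WT and -0.35 (SE 0.26, limma adjusted p = 0.387) in KO mice. With 10.4% of all genes called in either direction between KO obese and KO lean mice, 2 of the 8 genes were called there, Tpm2 and Neb, both higher. Under a random block for the identifier number, where 5.28% of all genes were called, 1 of the 8 was called by limma, Tpm2 (adjusted p = 0.0754), and Neb was not (adjusted p = 0.173). The median log2 fold change was 0.04 over the 8 genes and -0.0021 over all genes tested.

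**Figure D4:**
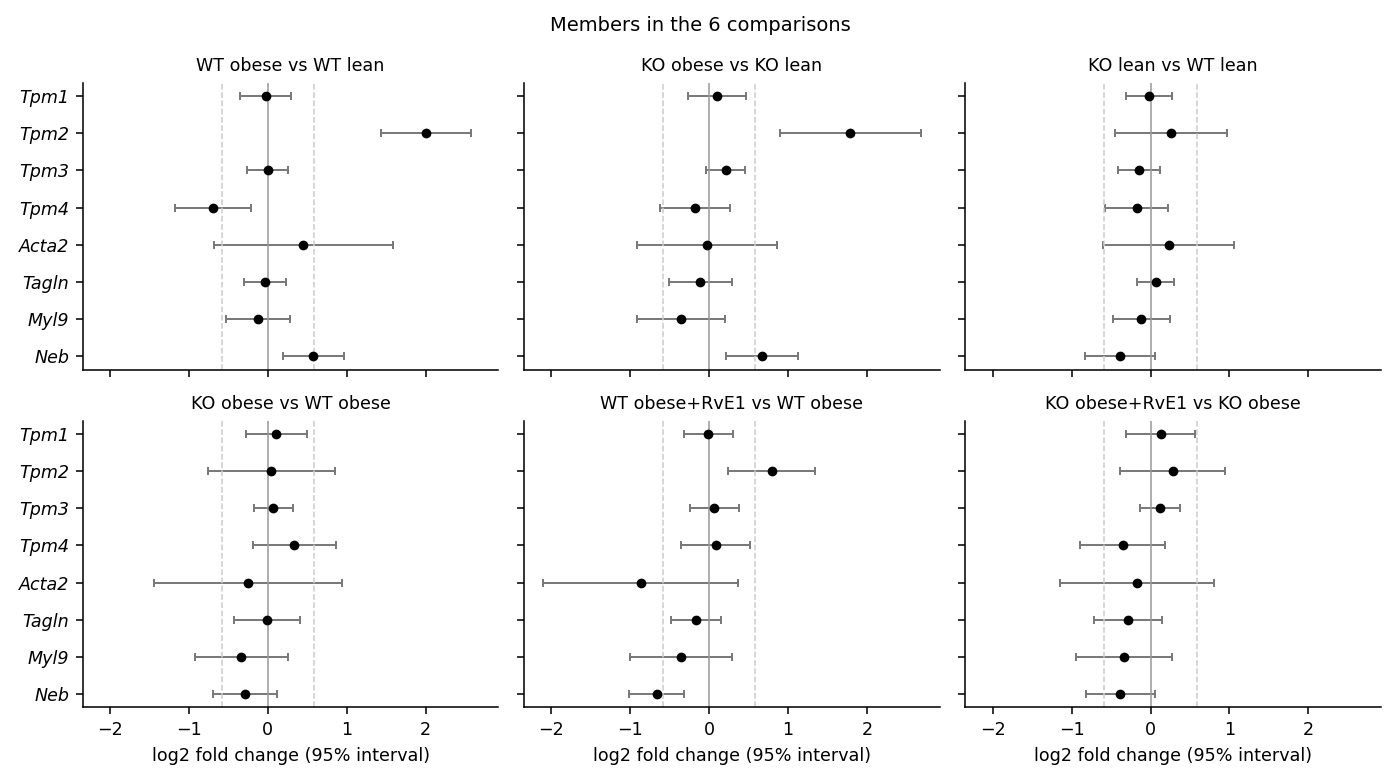
Log2 fold changes of the 8 genes (first named group minus second) with 95% intervals from limma in the 6 comparisons, 7 mice per group, with dashed lines at a fold change of 1.5 in either direction. Tpm2 stands furthest to the right in the 2 diet panels, at 2.01 in WT and 1.79 in KO mice.

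Between KO and WT mice of the same diet, none of the 8 genes was called. KO lean mice are shared with the KO diet comparison and WT lean mice with the WT diet comparison. In lean liver, where 6.65% of genes were called by limma, and 0.023% under a random block for the identifier number, the difference of Tpm2 was 0.26 on the log2 scale (KO minus WT, SE 0.34, adjusted p = 0.655), and -0.01 without KO lean replicate 7. With all mice it was 0.57 in edgeR (adjusted p = 0.331) and 0.57 in DESeq2 (adjusted p = 0.317). Neb had -0.39 (SE 0.21, limma adjusted p = 0.253). The other 6 genes lay between -0.17 and 0.23 with limma adjusted p from 0.484 to 0.946. In obese liver 0.0141% of genes were called, and the 8 genes had limma adjusted p of 1.0 after rounding. Tpm2 had 33.0, 109 and 149 normalized counts in WT obese and 35.5, 117 and 160 in KO obese mice, and its difference was 0.04 with a 95% interval from -0.76 to 0.85. That interval includes differences of 1.5-fold in either direction.

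RvE1 in obese mice gave no called gene by limma with all mice in the fit, 0% of the genes tested in either genotype. Without the KO obese mice of identifier number 10 it called 297 genes (2.1%) in KO mice, and without the WT obese mice of number 6 it called 47 (0.359%) in WT mice, with none of the 8 genes among them. At an unadjusted p under 0.05 there were 795 of 13085 genes in WT and 1179 of 14207 in KO mice. Under a random block for the identifier number these were 147 and 1039, and with equal totals 405 and 944. edgeR called 1 gene in WT and 0 in KO mice, and DESeq2 called 15 and 14, none of them among the 8. Tpm2 had normalized counts of 140.3, 163 and 212 in WT obese+RvE1 mice and 35.2, 116 and 158 in WT obese mice. The treated mice were gathered in the upper part of the vehicle range or above it, with 4 of 7 above every vehicle mouse. The log2 fold change was 0.79 (SE 0.26, 95% interval 0.24 to 1.35, limma unadjusted p = 0.0078, adjusted p = 0.772). In KO mice Tpm2 had 81.1, 117 and 174 with RvE1 and 37.3, 122 and 167 with vehicle, with a log2 fold change of 0.28 (SE 0.32, limma adjusted p = 0.809). The difference between genotypes, KO minus WT, was -0.51 (SE 0.43, limma adjusted p = 1.0 after rounding), and no gene of 13059 differed at an adjusted p under 0.1 while 311 did at an unadjusted p under 0.05.

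Neb was lower with RvE1 in WT mice before adjustment. It had 327, 356 and 639 normalized counts in WT obese+RvE1 and 506, 680.2 and 823 in WT obese mice. Of the 7 treated mice, 5 lay below every vehicle mouse, and the log2 fold change was -0.67 (SE 0.17, 95% interval -1.02 to -0.31, limma unadjusted p = 0.00102, adjusted p = 0.772). In KO mice it had 277, 447 and 520.4 with RvE1 and 309.5, 537 and 819 with vehicle, with overlapping groups and a log2 fold change of -0.38 (SE 0.21, limma adjusted p = 0.607). The genotype difference of the RvE1 effect on Neb was 0.28 (SE 0.28, limma adjusted p = 1.0 after rounding). The WT obese vehicle mice of the WT comparison are also the obese mice of the WT diet comparison. The unadjusted p-values of Tpm2 and Neb with RvE1 in WT mice ignore the identifier number, whose consensus correlation there was 0.373. Over 8 settings, a random block for that number among them, log2 fold changes were 0.65 to 0.86 for Tpm2 and -0.67 to -0.64 for Neb. Neither gene was called in any of them. The other 6 genes had log2 fold changes between -0.87, for the sparse Acta2 (SE 0.58), and 0.08 in WT mice, and between -0.35 and 0.13 in KO mice, with limma adjusted p of at least 0.685 in both.

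Variation among mice of the same group was examined next, with group means removed, over the 28 vehicle mice and all 28 pairs of the 8 genes. Group differences do not enter this measure. Acta2 and Myl9 rose and fell together (Pearson r = 0.74, Spearman rho = 0.75, permutation within groups, adjusted p = 0.00126 over 28 pairs). So did Tpm1 and Tpm3 (r = 0.65, rho = 0.64, permutation, adjusted p = 0.00126). Tpm2 and Tpm4 varied in opposite directions (r = -0.56, rho = -0.62, permutation, adjusted p = 0.00868). Other relations past an adjusted permutation p under 0.1 were Tagln with Myl9 (r = 0.62, rho = 0.48), Acta2 with Tagln (r = 0.49, rho = 0.60) and Tpm3 with Tpm4 (r = -0.45, rho = -0.46), 6 pairs in all by r. By rho, Tagln with Myl9 did not pass (permutation, adjusted p = 0.114), and Tpm1 with Tpm4 (rho = -0.54, permutation, adjusted p = 0.052) and Tpm1 with Tpm2 (rho = 0.47, permutation, adjusted p = 0.095) did. Tpm2 with Neb gave r = -0.11.

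Some of these relations did not pass without a few mice or within identifier numbers. For each pair, the 2 mice farthest from the median of its first-named gene were left out, so these could differ between pairs. Acta2 with Myl9 (r = 0.69), Tpm1 with Tpm3 (0.59), Tpm2 with Tpm4 (-0.53) and Acta2 with Tagln (0.65) then remained past the threshold. Tpm3 with Tpm4 and Tagln with Myl9 did not. Within identifier numbers, with the mean of each number removed, the 3 pairs among Acta2, Tagln and Myl9 held (r between 0.72 and 0.80). By r, Tpm1 with Tpm3 (r = 0.55, permutation, adjusted p = 0.113) and Tpm2 with Tpm4 (r = -0.41, permutation, adjusted p = 0.395) did not pass. Nor did Tpm3 with Tpm4 (r = -0.25, permutation, adjusted p = 0.629). By rho, Tpm1 with Tpm3 did pass (rho = 0.62, permutation, adjusted p = 0.0586), while Tpm1 with Tpm4 and Tpm1 with Tpm2 did not. Tpm4 with Neb passed in that setting instead (r = -0.57, permutation, adjusted p = 0.0761). Without KO lean replicate 7, over 27 mice, 4 pairs passed by r, among them Tpm2 with Tpm4 (r = -0.57, permutation, adjusted p = 0.0309). Tagln with Myl9 and Acta2 with Tagln did not pass by r (0.60 and 0.47). By rho, Acta2 with Tagln did pass there (rho = 0.56, permutation, adjusted p = 0.0619).

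Among 13923 genes, those whose levels followed Tpm2 most closely over the 28 mice were Noxo1 (r = 0.81, rho = 0.87), Sema5b (r = 0.75), Speg (r = 0.73), Gpr12 (r = 0.72) and Pbld1 (r = 0.71). Noxo1 encodes an organizer of NADPH oxidase, Sema5b a semaphorin, Speg a muscle kinase and Gpr12 an orphan receptor. The median r over all genes was 0.0055, and 8 genes (0.0575%) exceeded 0.7. Which genes stood closest changed without KO lean replicate 7, where the values were 0.78 for Noxo1 (rank 8), 0.76 for Sema5b (rank 12), 0.68 for Speg (rank 65), 0.73 for Gpr12 (rank 38) and 0.74 for Pbld1 (rank 26) over 27 mice. Of these 5, 2 also differed with diet as Tpm2 did. Sema5b had log2 fold changes of 2.03 in WT and 1.74 in KO mice (KO by limma, adjusted p = 0.0106), and Gpr12 had 1.34 and 1.45 (KO by limma, adjusted p = 0.0768). In WT and KO mice Noxo1 had 0.07 and 0.30, Speg 0.01 and -0.12, and Pbld1 0.29 and 0.04, with no call in KO mice by limma. These correlations are a description, since the points share libraries and groups of mice.

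The wider actomyosin machinery was read from 79 other gene symbols: actins, myosins, thin filament proteins, capping and crosslinking proteins, SRF coactivators and the sarcomere. Mrtfa and Mrtfb were entered under these and also under their older symbols, Mkl1 and Mkl2. In KO obese against KO lean mice 49 of the 79 passed the filter on low values. Of these, 7 were called higher and 1 lower, against 4.97% and 5.42% of all genes. Under a random block for the identifier number 3 were called higher and 0 lower by limma. Their median log2 fold change was 0.05. The 4 of 12 myosin-list genes called higher were 3 nonmuscle myosin heavy chains and the kinase that activates them. Under that block, where 5.28% of all genes were called, Mylk (adjusted p = 0.0171) and Myh14 (adjusted p = 0.064) kept their call by limma, and Myh9 (adjusted p = 0.105) and Myh10 (adjusted p = 0.146) lost it. Mylk, myosin light chain kinase, had normalized counts of 970.4, 1572 and 2097 in KO lean and 2614, 3326 and 4329 in KO obese liver. All KO obese mice lay above all KO lean mice for Mylk, as 0.985% of all genes did, and the log2 fold change was 1.11 (SE 0.16, limma adjusted p = 0.00203). Myh14, nonmuscle myosin IIC, had 64.2, 166 and 219 in lean and 209.9, 361 and 446 in obese liver, with a log2 fold change of 1.20 (SE 0.26, limma adjusted p = 0.00978). Its groups met only at the edge. Myh9, nonmuscle myosin IIA, had 1033, 1586 and 3607 in lean and 2356, 3236 and 3685 in obese liver and rose by 0.80 on the log2 scale (SE 0.21, limma adjusted p = 0.0228). Myh10, nonmuscle myosin IIB, rose by 0.73 (SE 0.23, limma adjusted p = 0.0428).

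Actin-binding and regulatory genes made up the rest of the calls. Actn1, the crosslinker alpha-actinin, had 189, 267 and 375 normalized counts in KO lean and 378, 426 and 567 in KO obese liver, without overlap (log2 fold change 0.76, SE 0.15, limma adjusted p = 0.00637). Lmod2, a leiomodin that nucleates actin filaments, had 11.7, 37.7 and 90.6 in lean and 27.0, 114 and 249 in obese liver (1.55, SE 0.52, limma adjusted p = 0.0535). Mkl2, a coactivator of serum response factor, rose by 0.71 (SE 0.23, limma adjusted p = 0.0486). Des, the muscle intermediate filament desmin that quiescent stellate cells also carry, fell by 0.59 on the log2 scale (SE 0.21, limma adjusted p = 0.0704). Under the block Actn1 kept its call by limma (adjusted p = 0.0417), and Lmod2 (adjusted p = 0.101), Mkl2 (adjusted p = 0.101) and Des (adjusted p = 0.159) lost theirs. Without KO lean replicate 6 the count of calls was 5, and 7.75% of all genes were called in place of 10.4%. Without KO lean replicate 7, the mouse with muscle transcripts, 9 pathway genes were called there and 5 between KO lean and WT lean mice. Of all genes 9.62% and 6.34% were then called.

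**Figure D5:**
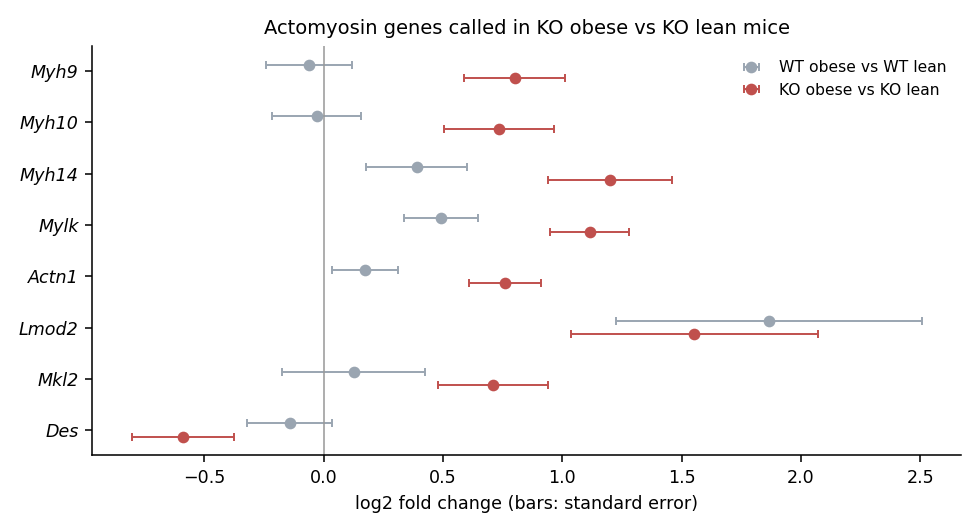
Log2 fold changes of obese against lean liver (± SE, 7 mice per group) for the 8 actomyosin genes called in KO mice, shown for WT and KO mice. Mylk stands at 0.49 in WT and 1.11 in KO mice, and Des at -0.14 and -0.59, and the differences between genotypes were not tested.

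In WT mice the same genes had other values. Lmod2 had 1.86 (SE 0.64), Mylk 0.49 (SE 0.15) and Myh14 0.39 (SE 0.21) on the log2 scale, and Myh9 had -0.06, Myh10 -0.03, Actn1 0.17, Mkl2 0.13 and Des -0.14. Of 48 pathway genes that passed the filter 0 were past the call rule upward and 1 downward, against 2.26% and 1.53% of all genes. The 1 was Tnnt1, the slow skeletal troponin T, with -1.13 and at most 18.1 normalized counts. These WT values are a description, and whether they differ from the KO values was not tested.

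Calls between the lean groups of the 2 genotypes depended on how the identifier number was treated. Between KO lean and WT lean liver 41 pathway genes passed the filter, 1 was called higher and 4 lower, against 3.94% and 2.7% of all genes. Under a random block for the identifier number 0 were called by limma (adjusted p from 0.139 to 0.17 for these 5), and the calls over all genes fell from 866 (6.65%) to 3 (0.023%), with 2654 at an unadjusted p under 0.05. Mylk had 1567, 2128 and 2363 normalized counts in WT lean and 880.0, 1427 and 1911 in KO lean mice (log2 fold change -0.59, limma adjusted p = 0.0458). Myh10 gave -0.80 (limma adjusted p = 0.0493), Myh14 -0.85 (limma adjusted p = 0.0567) and Myh9 -0.70 (limma adjusted p = 0.0615). Myl6, the essential light chain of nonmuscle myosin, was higher in KO lean mice (0.86, limma adjusted p = 0.0357). The KO lean mice are the same in this and in the KO diet comparison, so the lower lean levels enter both. The count of pathway genes called was 3 without KO lean replicate 3, 2 without KO lean replicate 4 or 6 and 1 without WT lean replicate 2 or 5. The share of all genes called fell as well. It was 4.6% without KO lean replicate 3, 3.34% and 3.07% without KO lean replicates 4 and 6. Without WT lean replicates 2 and 5 it was 2.99% and 2.98%. Of the pathway genes tested by limma, 50 between KO obese and WT obese, 41 for RvE1 in WT and 48 for RvE1 in KO mice, 0 were called.

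Counts in the 3 comparisons with lean mice moved with the scaling of the libraries. With each library scaled to the same total, WT obese against WT lean mice had 278 genes called higher and 127 lower in place of 317 and 215. The median of all genes shifted by 0.14 on the log2 scale between KO obese and KO lean mice and by -0.12 between KO lean and WT lean mice. Their called genes were then 1320 higher and 351 lower in place of 706 and 770 in the KO diet comparison, and 265 higher and 734 lower in place of 514 and 352 between the lean groups. Tpm2 and Neb kept their direction and call in KO obese against KO lean mice, where pathway genes were 9 higher and 0 lower, and between KO lean and WT lean mice 1 higher and 5 lower.

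Cell type markers were measured beside these results. In bulk liver, fewer cells of a type and less RNA per cell cannot be told apart. Of 9 tested Kupffer cell markers 7 were lower in KO obese than in KO lean mice by limma, where 5.42% of all genes were called lower, and 6 were under a random block for identifier number. Their summed level was 11266, 12140 and 23695 normalized counts in lean and 6251, 7863 and 8709.9 in obese mice, with Cd5l the most abundant. Of 10 sinusoidal endothelial markers 3 were lower by limma and 0 under the block. In the smooth muscle list 8 genes passed the filter, and the sum rested on Mylk, with 1 called higher, Mylk itself, and 1 lower, Des, which lost its call under the block. Among 14 hepatic stellate cell markers 0 were called higher and 1 lower by limma, again Des, and 0 under the block. Among 12 markers of activated stellate cells and fibroblasts Pi16 was higher and Thy1 lower by limma. Neither kept its call under the block, where Lum was called lower instead. Of 6 mesothelial markers 2 were lower, and 1 under the block. Between KO lean and WT lean mice, where 3.94% of all genes were called higher, all 9 Kupffer cell markers tested were higher by limma, and 0 were under the block (adjusted p from 0.111 to 0.16). In WT obese against WT lean mice the marker values are a description. There 1 of 14 stellate cell markers, Hgf (log2 fold change -0.66), and 1 of 6 mesothelial markers, Gpm6a (-0.72), were past the call rule downward. So were 1.53% of all genes, and 0 of 9 Kupffer cell markers. The part of these cells in the levels of Tpm2, Neb and the myosin genes was not tested. Skeletal muscle markers were at most 38.2 normalized counts in sum in any KO obese mouse, over the 5 listed there. Over the 3 listed in the WT diet comparison the sum was at most 33.8 in any WT obese mouse, and 49.6 in WT lean replicate 6.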

How the data were processed

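The authors prepared TruSeq stranded total RNA libraries, aligned read pairs to UCSC mm10 with Bowtie2, used featureCounts for pairs of which both ends mapped, and normalized each comparison's 14 libraries with DESeq2 size factors. Not given in the sources used here are versions, the annotation and whether counting used strand. The deposited signal values are therefore normalized counts, comparable within a table. The tables also hold the authors' own fold changes and p-values, which were not used. Whole reads were recovered from the deposited values (100% whole within 0.1 reads). Between 15992525 and 43841120 reads per mouse fell on listed genes (median 24298289). Of the 126 pairs of libraries within a group none differed by less than sampling noise (smallest chi-square per gene 21.9); pairs across groups were not compared.

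Each comparison was fitted in R 4.3.3 with limma (3.58.1, moderated by eBayes with trend) on log2(normalized count + 1), two-sided, over all genes whose mean normalized count reached 5, with Benjamini-Hochberg adjustment over all of them. Fold changes on this scale understate those of low genes. A call required a fold change above 1.5 with an adjusted p under 0.1. Genotype differences of effects were formed from fold changes within tables. Pairs of genes were tested by permutation of mice within groups (100000 resamples). The procedures were tested on simulated data in which mice were drawn independently, so a likeness of mice with the same identifier number was not simulated.

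Alternatives were pseudocounts of 0.5 and 4, no filter, TMM scaling, equal totals, no fold threshold, a random block for identifier number, a stricter adjusted p of 0.05, edgeR (4.0.16, quasi-likelihood) and DESeq2 (1.42.0) on the recovered reads, and each mouse left out. Leaving out mice by identifier number, removing identifier means, recounting the pathway genes and Cmklr1 under each setting, markers under the block, and Tpm2 and the gene pairs without KO lean replicate 7, were chosen after seeing the data. The genes and lists were chosen with earlier results of these data known. Named were all 8 genes, every pathway gene called, Cmklr1 and the 5 genes closest to Tpm2. Nothing states separate litters or cages, so p-values measure the spread between these mice. Coordinates and exon lengths are from GENCODE M21, motifs and upstream bases from RefSeq.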

Additional observations from a re-analysis of the deposited data

Results flagged for a closer look

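In 5 of 48 group and gene combinations, each of 7 mice, the highest mouse stood apart from the rest by more than Dixon's 95% critical share of the group's whole range. Some groups pass this critical share by chance, and how often was not measured for such counts. WT lean replicate 1 accounted for 2 of them, with 1341 normalized counts of Tpm4 where the next mouse had 793, and 40.2 of Myl9 where the next had 31.9. WT obese replicate 5 had 85.8 normalized counts of Acta2, and the next mouse had 22.8. KO lean replicate 7 had 85.2 of Tpm2 and the next mouse 42.3, and it was also the mouse with 236 normalized counts of Ttn. KO obese+RvE1 replicate 6 had 978 of Tpm4 and the next mouse 500.4.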

How the results depend on the processing

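No paired analysis was possible because the labels give the groups no shared replicate numbers, and of the identifier numbers 23 alone has mice in both arms of a comparison (KO obese+RvE1 against KO obese). Under a random block for the identifier number (consensus correlation 0.237 for KO obese against KO lean mice) 1 of the 8 genes was called there in place of 2, Tpm2, as it was without the mice of number 20 or 31, and without those of number 10 the 1 called was Neb. With each mouse left out in turn the count was 1 to 2. Of the pathway genes, 8 in that comparison, 3 were called with the block, 5 without number 9 and 4 without number 31. With each mouse left out the pathway count was 5 to 12. Of all genes 10.4% were called there, 5.28% with the block, 6.4% without number 9 and 4.49% without number 31. Without number 10 or 20 that share was 9.78% or 14.2%, and with each mouse left out 7.63% to 14.1%. Between KO lean and WT lean mice 5 pathway genes were called, against 0 with the block. The count was 3 without number 8, 0 without number 9, 21 or 26, and 1 to 7 with each mouse left out. The share of all genes called fell from 6.65% to 0.023% with the block. Without number 9, 21 and 26 it was 0.115%, 0.246% and 0.0614%. Without number 8 it was 8.56%, and with each mouse left out 2.98% to 11.4%. Values near 0 changed sign. In KO obese against KO lean mice Acta2 gave 0.0060 with a pseudocount of 4, 0.11 with equal totals, 0.28 in edgeR and 0.26 in DESeq2, and Tagln 0.035 with equal totals. Between KO lean and WT lean mice Tagln gave -0.051 with equal totals. Between KO obese and WT obese mice Tpm2 gave -0.0098 with the block, and Tagln 0.038 in edgeR and 0.044 in DESeq2. With each mouse left out in turn, log2 fold changes ran for KO obese against KO lean mice Tpm1 from -0.0041 to 0.19, Acta2 from -0.31 to 0.14. They ran for KO lean against WT lean mice Tpm1 from -0.072 to 0.049, Tpm2 from -0.013 to 0.44, Acta2 from -0.081 to 0.45. They ran for KO obese against WT obese mice Tpm2 from -0.19 to 0.26, Acta2 from -0.56 to 0.14, Tagln from -0.12 to 0.091. They ran for WT obese+RvE1 against WT obese mice Tpm1 from -0.084 to 0.083, and for KO obese+RvE1 against KO obese mice Acta2 from -0.34 to 0.11. Tpm2 in KO obese against KO lean mice ranged from 1.67 to 1.94 over 8 settings and from 1.61 to 2.07 with each mouse left out. Calls were lost in 1 setting for Tpm2 and 6 for Neb in KO obese against KO lean mice, and in 11 for Cmklr1 in KO obese against WT obese mice. Depth limits Acta2, Myl9 and Tpm2 in lean mice, which had few reads.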
